A study of Mus musculus with 2 samples.

Results

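The fragments described here were reads from the genes of ribosomal proteins, the protein subunits of the cytosolic ribosome. A read was a member when it was at least 18 nt long and lay in sense and without mismatch in a mouse ribosomal protein gene of GENCODE M21 (GRCm38). The genes were protein-coding genes with an Rpl or Rps symbol and a number, plus Rplp0, Rplp1, Rplp2 and Rpsa. A read inside or partly overlapping any small RNA gene of that annotation was left out. The symbol rule gave 80 of 21924 protein-coding genes. The members were 4675 of 5265872 null reads and 968 of 9133899 f/f reads of that length, and they were 1974 of 1059800 distinct sequences. At least 1 read lay in 78 of the 80 genes.

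The study sequenced small RNA from mouse mesenchymal stem cells, a fibroblast-like cell of adult bone marrow, with and without Dicer, the RNase III enzyme that cuts miRNA precursors. The groups were a Dicer -/- line, called null here, and a Dicer f/f line, which the labels treat as wild type. Both were immortalized monoclonal lines on the C57BL/6 background, so each genotype was 1 clone and 1 library, and a difference between clones or libraries and a difference between genotypes cannot be told apart. The null library held 6291599 reads and the f/f library 9943989 reads. RNA was cut from a gel at 15 to 50 nt, while the longest read was 36 nt.

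With 1 library per genotype there was no replicate check and no test between genotypes was possible. Intervals in parentheses are 95% intervals that cover counting error alone, exact for shares and ratios and a hybrid of exact intervals for differences. They treat every read as independent, and since PCR copies are not independent molecules they can be too narrow. Levels are given in CPM, which scales each count to the same total of all reads in a library. CPM is a share of the library, so a higher CPM in null does not show that a cell held more of an RNA. A gene without a read can still lie at up to 0.477 CPM in null and 0.302 CPM in f/f, the level of 3 reads. In bulk RNA, fewer cells and less RNA per cell cannot be told apart. Fragments of mesenchymal marker mRNAs were present, with Col1a2 at 232 null and 33 f/f reads, Vim at 135 null and 14 f/f reads and Thy1 at 0 reads in both libraries. Of the blood, endothelial and epithelial markers, Itgam had 13 null and 19 f/f reads, Pecam1 had 1 null read and 0 f/f reads, and Ptprc, Cd34, Cdh5, Epcam and Cdh1 had 0 reads in both. Dicer1 mRNA gave 27 null and 12 f/f reads, and since the labels do not name the deleted exon these did not check the genotype.

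Ribosomal protein mRNAs are among the most abundant and most stable mRNAs of a growing cell. They are short, they are translated together under control of a pyrimidine tract at their 5′ end (the TOP motif), and their introns host many snoRNAs, the guide RNAs of rRNA modification. In a library of small RNA, their reads are pieces of longer RNA that fell into the size range.

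The leading sequences show which RNAs the rule collected. The first set is shown because it lay outside the spliced mRNA. Apart from reads made of 1 base, the 3 most abundant null sequences lay on transcripts other than the spliced mRNA, 2 of them in Rpl7a, a 60S subunit gene, and 1 in Rpl30, another 60S subunit gene. In the second line, capitals mark the stretch that is also the leading f/f sequence under 24 nt.
Rpl7a, first piece: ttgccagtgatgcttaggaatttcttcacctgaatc
Rpl7a, second piece: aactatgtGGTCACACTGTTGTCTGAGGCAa
Rpl30: aataatgatggttgctttctgatg
The first Rpl7a piece lay at chr2:26912848-26912883 on the plus strand (GRCm38) and had 140 null and 17 f/f reads. The second lay at chr2:26912884-26912914 and had 135 null and 13 f/f reads. The pieces were adjacent, with no base between them, and together covered all but the last base of a snoRNA gene of the RefSeq annotation, LOC115489588, at chr2:26912848-26912915. The capitalised 22-nt piece had 8 null and 14 f/f reads. The Rpl30 piece lay at chr15:34442540-34442563 on the minus strand and had 43 null and 0 f/f reads.

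The second set holds leading sequences of the spliced mRNAs, which carried the rest of the results. Capitals mark the read and lower case the 10 mRNA bases on each side in GENCODE M21, all within the coding sequence.
Rps2: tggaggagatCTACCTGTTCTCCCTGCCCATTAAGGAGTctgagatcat
Rpl12: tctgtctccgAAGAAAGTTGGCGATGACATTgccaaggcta
Rps26: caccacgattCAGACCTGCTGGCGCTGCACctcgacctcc
Rpl15: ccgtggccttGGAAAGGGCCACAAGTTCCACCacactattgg
Rplp0: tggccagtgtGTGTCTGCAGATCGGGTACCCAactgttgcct
Rpl10a: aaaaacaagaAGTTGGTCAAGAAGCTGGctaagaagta
Rpl4: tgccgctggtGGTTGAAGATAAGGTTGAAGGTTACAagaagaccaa
The Rps2 read, 29 nt long at chr17:24720599-24720627, had 16 null and 0 f/f reads. The Rpl12 read, 21 nt long at chr2:32962580-32962600, had 15 null and 3 f/f reads. The Rps26 and Rpl15 reads had 13 null and 0 f/f reads each, and the Rps26 read crossed an exon junction. The last 3 sequences were among the leading ones in f/f: the Rplp0 read had 0 null and 6 f/f reads, the Rpl10a read had 4 null and 5 f/f reads, and the Rpl4 read had 0 null and 5 f/f reads. No spliced mRNA sequence was abundant, since the leading one made up 0.579% of the null reads and 1.40% of the f/f reads. That leading null sequence, a 24-nt read in Rpl13a with 19 null and 0 f/f reads, did not lie on the gene's representative mRNA and is named only.

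The reads collected by the rule were of different kinds. Spliced mRNA, meaning a transcript that GENCODE types as protein coding, accounted for 3279 null reads (70.1%; 68.8 to 71.4%) and 430 f/f reads (44.4%; 41.3 to 47.6%). Reads that matched other transcript types of these genes alone (retained intron, processed transcript or nonsense-mediated decay) made up 1108 null reads (23.7%; 22.5 to 24.9%) and 379 f/f reads (39.2%; 36.1 to 42.3%). Reads in which 1 base filled at least 80% of the positions made up 288 null reads (6.16%) and 159 f/f reads (16.4%), and 253 null and 135 f/f reads of them were A alone. Of the reads on other transcript types, 515 null and 203 f/f reads overlapped a RefSeq snoRNA gene that GENCODE M21 did not class as small RNA, in Rpl7a or in Rpl3. The spliced mRNA made up a larger part in null, and every other kind a larger part in f/f. Before small RNA genes were left out, 22308 null and 6769 f/f reads lay in the 80 genes, and 14567 null (65.3%) and 5393 f/f reads (79.7%) of these were inside a GENCODE small RNA gene. A further 3066 null (13.7%) and 408 f/f reads (6.03%) overlapped one in part and were also left out.

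**Figure D1:**
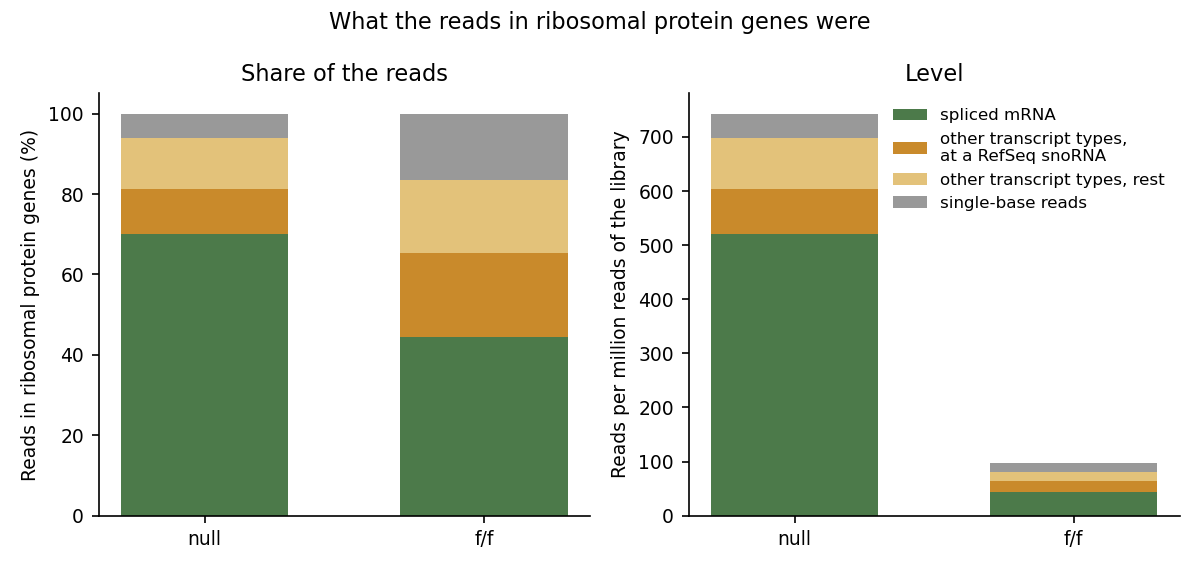
Bars show the reads in ribosomal protein genes by kind for null (left) and f/f (right), as percent of those reads in the left panel and in CPM in the right panel, 1 library each. Spliced mRNA filled 70.1% of the null bar and 44.4% of the f/f bar, and its level was 521 CPM in null and 43.2 CPM in f/f.

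All kinds had a higher CPM in null, by different factors. The members together stood at 743 CPM in null and 97.3 CPM in f/f, a ratio of null over f/f of 7.63 (7.12 to 8.19). The size of this ratio depended on the scale, and per snoRNA and snRNA read it was 1.79 (1.67 to 1.92). Spliced mRNA stood at 521 CPM in null and 43.2 CPM in f/f, a ratio of 12.1 (10.9 to 13.4). The reads on other transcript types stood at 176 CPM in null and 38.1 CPM in f/f, a ratio of 4.62 (4.11 to 5.21), and the single-base reads had a ratio of 2.86 (2.35 to 3.50). The spliced mRNA therefore had the highest ratio, and its interval did not meet those of the other kinds.

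Fragments of other protein-coding genes also had a higher CPM in null, by the same rule at 38578 CPM in null and 4672 CPM in f/f, a ratio of 8.26 (8.18 to 8.34). Set against these reads, the direction depended on which members were counted. Of all reads in protein-coding genes, the members were 1.89% in null and 2.04% in f/f, a difference of -0.15 percentage points (-0.29 to -0.01), and their ratio per other coding read was 0.924 (0.862 to 0.992), lower in null. The interval of the difference included 0 without 36-nt reads (-0.26 to 0.0202) and under 3 other alternatives in which the difference had the same sign. Of spliced mRNA reads alone, ribosomal protein genes were 1.48% in null and 1.06% in f/f, a difference of 0.42 percentage points (0.31 to 0.53), and their ratio per other coding read was 1.40 (1.27 to 1.56), higher in null. The sign turned with the reads on other transcript types and the single-base reads, which were included in the first pair of shares and absent from the second.

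Single genes were compared where both libraries together held at least 20 reads, and a gene without an f/f read was set against 3 reads. Most of the ribosomal protein genes had fewer than 20 f/f reads and passed this minimum through null, the library where they were higher. The minimum thus favoured ratios above 2, and the counts below are descriptions to be read only beside all genes. By the rule, 69 of 69 ribosomal protein genes had more than 2-fold more CPM in null, and so did 91.6% of 6766 protein-coding genes. None of the 69 was more than 2-fold lower, against 0.325% of all genes. Per other coding read, 21 of the 69 were more than 2-fold higher in null, with 15.6% of all genes, and 5 were more than 2-fold lower, with 33.0% of all genes. On spliced mRNA reads, 68 of 68 genes were above 2-fold in CPM, with 93.6% of 4788 genes, and 0 of 68 were more than 2-fold lower, with 0.418% of all genes. A ratio above 8 was found for 53 of the 68 genes and for 57.5% of all genes. Per other coding read, 22 of the 68 were more than 2-fold higher, with 24.8% of all genes, and 3 were more than 2-fold lower, with 19.9% of all genes. The median log2 ratio of CPM was 3.67 over the 68 genes and 3.25 over all 4788 genes. These ratios were also less spread, with quartiles at 3.09 and 4.25 for the ribosomal protein genes and 2.36 and 4.09 for all genes.

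**Figure D2:**
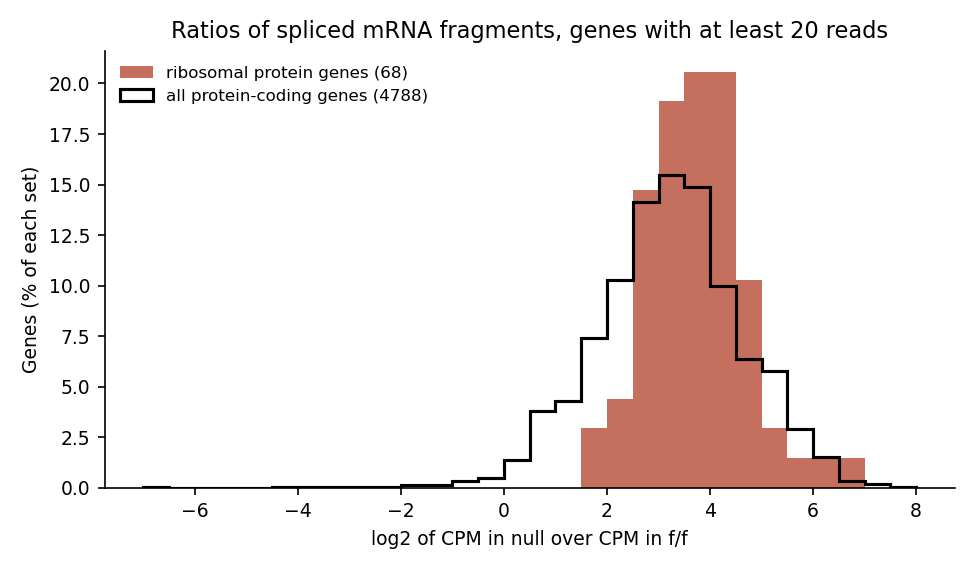
Histograms of the log2 ratio of CPM, null over f/f, for genes with at least 20 spliced mRNA reads over both libraries, in percent of each gene set (filled, 68 ribosomal protein genes; line, 4788 protein-coding genes), with 1 library per genotype. Genes without an f/f read are drawn at their ratio against 3 reads. The filled bars run from 1.88 to 6.83 with a median of 3.67, and the line has a median of 3.25.

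Both subunits contributed. The large (60S) subunit genes summed to 1909 null and 240 f/f spliced mRNA reads, a ratio in CPM of 12.6 (11.0 to 14.4), and 47 of the 49 genes had a read. The small (40S) subunit genes summed to 1370 null and 190 f/f reads, a ratio of 11.4 (9.79 to 13.3), and all 31 genes had a read. The intervals of the 2 subunits overlapped. A gene's level in null ranged up to 31.2 CPM with a median of 5.88 CPM, and in f/f up to 2.82 CPM with a median of 0.402 CPM, and 15 of the 80 genes had no f/f read. Across the 80 genes the null and f/f spliced mRNA reads had a Spearman correlation of 0.69, which is a description across genes that share both libraries.

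Among small subunit genes, Rps2, whose protein lies at the mRNA entry site, had the most spliced mRNA reads in null. It lies on chromosome 17 (24718116 to 24721929, GRCm38) and had 196 null and 19 f/f reads, 31.2 CPM in null and 1.91 CPM in f/f, a ratio of 16.3 (10.2 to 27.7). Rps20, of the small subunit's head, followed with 106 null and 15 f/f reads, a ratio of 11.2 (6.47 to 20.7). Rps27a, which encodes a fusion of ubiquitin with a ribosomal protein, had 72 null reads and 1 f/f read, a ratio of 114 with an interval from 19.8 to 4556. Its ratio by the rule, 93 null and 2 f/f reads, was the highest among genes with at least 50 reads. The ratios of 3 further named genes were under the 8.59 of spliced mRNA fragments from other coding genes, so that they were higher in null in CPM and lower per other coding read. Rpsa, also known as the laminin receptor, had 76 null and 20 f/f reads, a ratio of 6.01 (3.63 to 10.4). Rps6, the target of the S6 kinases, had 54 null and 15 f/f reads, a ratio of 5.69 (3.16 to 10.9). Rps12 had 42 null and 10 f/f reads, a ratio of 6.64 (3.28 to 14.8). The intervals of Rpsa, Rps6 and Rps12 all included 8.59, so the order against other coding reads was within counting error. Rps19, picked after its value was seen, had the lowest ratio of the 68 genes, 3.69 (1.82 to 7.96), from 28 null and 12 f/f reads. The interval of Rps19 lay below 8.59 and that of Rps2 above it. Rps19 was chosen as the lowest of 68 ratios and its interval was not adjusted for that, so its place follows in part from the choice. Rps3, at the mRNA entry site, had 53 null and 8 f/f reads and a ratio of 10.5 (4.95 to 25.5).

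Among large subunit genes, Rpl12, whose protein sits at the base of the stalk, led in null with 115 null and 10 f/f reads, 18.3 CPM in null and 1.01 CPM in f/f, a ratio of 18.2 (9.53 to 38.9). All 115 null and 10 f/f reads also matched an annotated pseudogene, so none of them can be assigned to Rpl12 alone. Rpl10, which is added late in subunit maturation, had 78 null and 15 f/f reads, a ratio of 8.22 (4.69 to 15.4). Rpl9 was among the lowest ratios, with 68 null and 23 f/f reads and a ratio of 4.67 (2.88 to 7.86). Rpl13 had 55 null and 3 f/f reads, a ratio of 29.0 (9.41 to 145), and Rpl18 had 58 null and 4 f/f reads, a ratio of 22.9 (8.48 to 86.9). Rpl26, near the exit tunnel, had 32 null and 0 f/f reads, which is 16.9-fold higher in null when f/f is set at 3 reads, and the exact interval of its ratio began at 12.9. The intervals of most single genes were wide, and those of Rpl9 and Rpl12 did not overlap. Against the 8.59 of other coding genes, the interval of Rpl9 lay below and those of Rpl12, Rpl13 and Rpl26 above. The median ratio over all genes was 9.48, and the interval of Rpl13 included it. Rpl9, Rpl13 and Rpl26 were named for low or high ratios, so their places follow in part from that choice. The intervals were not adjusted for the number of genes.

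For some large subunit genes the rule's count and the spliced mRNA count differed widely. Rpl7a led by the rule in both libraries with 539 null and 214 f/f reads, but only 21 null and 0 f/f reads of these lay on its spliced mRNA. Rpl7 had 336 null and 152 f/f reads by the rule, and 58 null and 5 f/f on its spliced mRNA, and most of the rest were single-base reads. Rpl3, at the peptidyl transferase centre, had 123 null and 18 f/f reads by the rule and 48 null and 9 f/f on its spliced mRNA. Rpl30 had 106 null and 6 f/f reads by the rule and 51 null and 6 f/f on its spliced mRNA, and Rpl10a, of the L1 stalk, had 89 null and 26 f/f by the rule and 44 null and 8 f/f on its spliced mRNA. The low ratios by the rule of Rpl7 (3.49; 2.88 to 4.26) and Rpl7a (3.98; 3.39 to 4.69) were not those of their spliced mRNAs. These were 18.3 (7.42 to 58.6) for Rpl7 and, with f/f set at 3 reads, 11.1 for Rpl7a, whose exact interval began at 8.23.

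The stalk genes, whose proteins recruit the translation factors, summed to 115 null and 35 f/f spliced mRNA reads, a ratio of 5.19 (3.53 to 7.81). Rplp0, the scaffold of the stalk, had 82 null and 28 f/f reads, a ratio of 4.63 (2.98 to 7.39), and was the gene with the most spliced mRNA reads in f/f. Rplp1 had 19 null and 7 f/f reads, a ratio of 4.29 (1.73 to 12.1), and Rplp2 had 14 null and 0 f/f reads, a ratio of 7.38 with f/f set at 3 reads and an exact interval from 5.24. Of the 5S particle, whose proteins can bind Mdm2 when ribosome assembly is disturbed, Rpl5 had 60 null and 10 f/f reads, a ratio of 9.48 (4.82 to 20.8), and Rpl11 had 38 null and 7 f/f reads, a ratio of 8.58 (3.79 to 22.8). The exit tunnel list summed to 238 null and 16 f/f reads over 8 of 8 genes, a ratio of 23.5 (14.2 to 41.8), and was led by Rpl4 with 70 null and 6 f/f reads. The 5 genes of the decoding and mRNA entry list summed to 365 null and 49 f/f reads, a ratio of 11.8 (8.72 to 16.2). A list of 10 of the genes mutated in Diamond-Blackfan anaemia summed to 340 null and 45 f/f reads, a ratio of 11.9 (8.73 to 16.7). The interval of the stalk lay below that of the exit tunnel, and the other lists lay between them. Against the 8.59 of other coding genes, the intervals of Rplp0 and of the stalk sum lay below. Those of the exit tunnel, decoding and Diamond-Blackfan lists lay above. The 8.59 is a ratio of summed reads, in which genes with many reads weigh most. The median ratio over all 4788 genes was 9.48, and the intervals of the decoding and Diamond-Blackfan lists included it. That of the exit tunnel lay above it too, and those of Rplp0 and the stalk sum lay below it too.

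The listed paralogs were nearly absent. Rps27l had 6 null reads and 1 f/f read, a ratio of 9.48 (1.15 to 436), and Rpl39l had 3 null and 0 f/f reads, which is at the level that a count of 0 allows. Rpl10l and Rpl3l, known from testis and from muscle, had 0 reads in both libraries, which allows up to 0.477 CPM in null and 0.302 CPM in f/f. No protein-coding gene of the annotation had the symbol Rps4l.

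**Figure D3:**
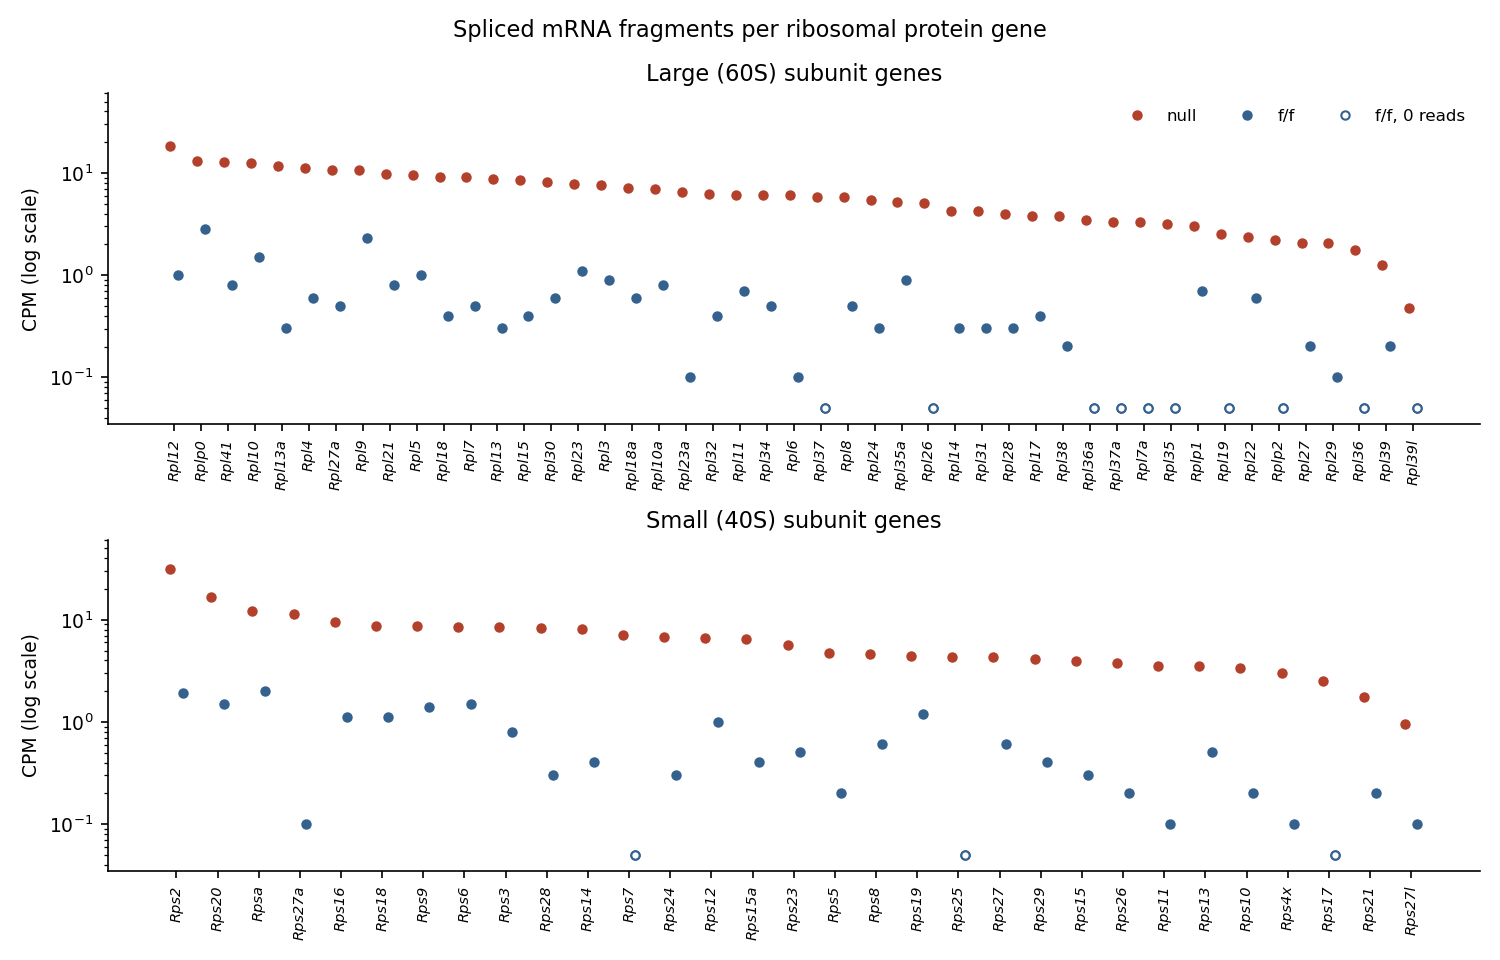
Points show spliced mRNA fragments per gene in CPM on a log axis, null (red, left) beside f/f (blue, right), for large subunit genes (top) and small subunit genes (bottom) in order of their null level, 1 library each. Open circles at the bottom edge stand for genes without an f/f read and are not to scale. Rps2 was highest in null at 31.2 CPM and Rplp0 in f/f at 2.82 CPM.

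Levels between genes were compared per length, as CPM per kb of coding sequence. In null the median was 7.22 CPM per kb, and Rpl12 stood highest at 31.6 CPM per kb, followed by Rpl41, the smallest ribosomal protein, at 28.5, Rps2 at 25.4 and Rps20 at 22.5. These null values rested on 99 reads for Rpl12, 14 for Rpl41, 141 for Rps2 and 51 for Rps20. All 115 null spliced mRNA reads of Rpl12 also matched a pseudogene. So did 14 of 80 for Rpl41, 152 of 196 for Rps2 and 56 of 106 for Rps20. In f/f the median was 0.312 CPM per kb, and Rpl9 stood highest at 3.30 CPM per kb, followed by Rps18 at 2.41 and Rps27 at 2.37. These f/f values rested on 19, 11 and 6 reads, and 25 of the 80 genes had no f/f read in the coding sequence. Of the f/f spliced mRNA reads, 19 of 23 for Rpl9, 7 of 11 for Rps18 and 6 of 6 for Rps27 also matched a pseudogene. Rpl41, Rps18 and Rps27 were picked after their values were seen.

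Other gene lists of translation were set beside these. Other mRNAs listed as TOP mRNAs, many of which encode translation factors, summed to 1381 null and 195 f/f spliced mRNA reads over 17 of 17 genes, a ratio of 11.2 (9.63 to 13.1), and 15 of 15 genes with at least 20 reads were more than 2-fold higher, beside 93.6% of all genes. The 5′ tract of these genes was not checked. Their leading gene, Eef1a1, the elongation factor that delivers aminoacyl-tRNA, had 276 null and 52 f/f reads, a ratio of 8.39 (6.22 to 11.5). Mitochondrial ribosomal protein genes summed to 1990 null and 433 f/f reads over 77 of 78 genes, a ratio of 7.26 (6.54 to 8.08), and 22 of 23 genes with at least 20 reads were more than 2-fold higher, again beside 93.6% of all genes. Mrps26 alone held 736 null and 150 f/f of those reads. Ribosome biogenesis factors summed to 1529 null and 322 f/f reads over 25 of 25 genes, a ratio of 7.51 (6.65 to 8.49), and Wdr12 held 883 null and 183 f/f of those. The median log2 ratio was 3.91 for the other TOP mRNAs, 2.88 for the mitochondrial genes and 2.98 for the biogenesis factors, beside 3.25 over all genes.

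The fragments were short in both libraries, with a median length of 24 nt in null and 24 nt in f/f, and the commonest length was 23 nt in null and 19 nt in f/f. Reads of 24 to 35 nt were 49.2% of the null spliced mRNA reads (47.5 to 50.9%) and 43.3% of the f/f reads (38.5 to 48.1%), a difference of 5.94 percentage points (0.81 to 11.0). Reads of 18 to 23 nt were 42.5% in null and 49.1% in f/f, a difference of -6.56 percentage points (-11.7 to -1.44). Reads of 36 nt, which fill the read length so that their insert length is not known, were 8.30% in null and 7.67% in f/f, a difference of 0.62 percentage points (-2.455 to 3.16). There were 0 ribosomal protein reads of 34 or 35 nt in either library, so the 24 to 35 nt window ended in effect at 33 nt. The 28 to 32 nt range usual for ribosome footprints held 16.1% of null and 17.2% of f/f reads, a difference of -1.11 percentage points (-5.21 to 2.58). The lengths of other coding fragments differed more between the libraries. There, 18 to 23 nt reads were 48.0% in null and 68.7% in f/f, a difference of -20.7 percentage points (-21.2 to -20.2), and 36-nt reads were 7.94% in null and 3.96% in f/f. In f/f, ribosomal protein fragments held a smaller share of the shortest reads than other coding fragments, with intervals of 44.3 to 53.9% and 68.3 to 69.2%.

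**Figure D4:**
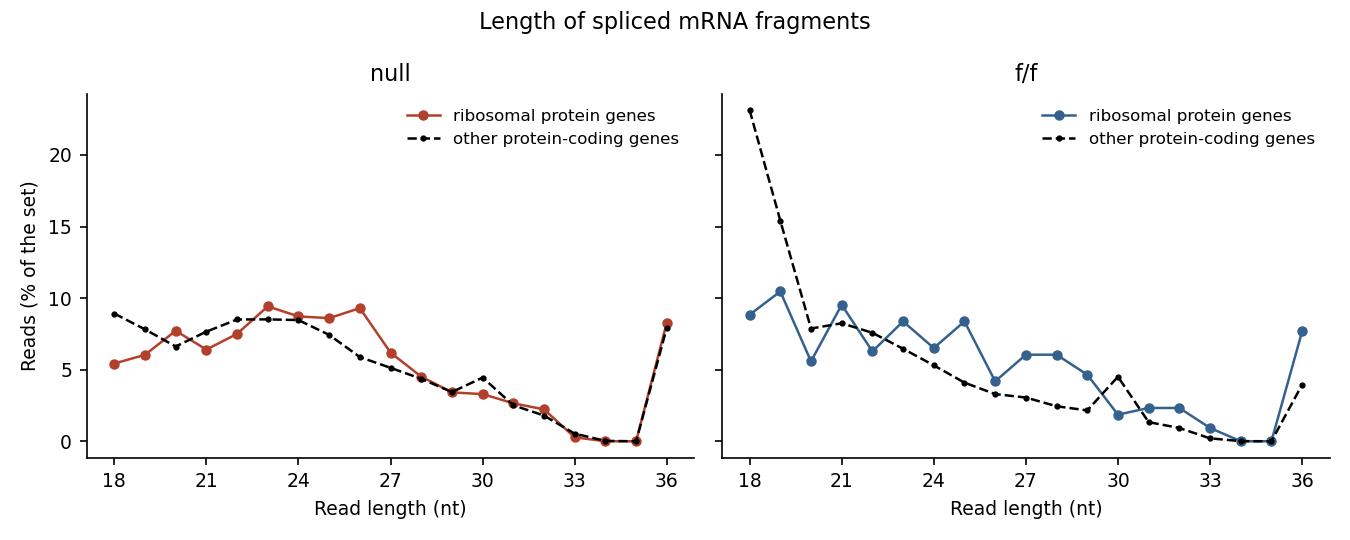
Lines show the length of spliced mRNA fragments in nt against percent of each set, in null (left) and f/f (right), for ribosomal protein genes (solid) and other protein-coding genes (dashed), 1 library each. Of the other coding fragments, 48.0% in null and 68.7% in f/f were 18 to 23 nt long, and of the ribosomal protein fragments 42.5% in null and 49.1% in f/f. The last point holds reads that fill the read length of 36 nt, whose insert length is not known.

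Position was read from the fragments that lay once on 1 representative mRNA per gene, 2948 null and 357 f/f reads. By their first base, 2103 null reads (71.3%; 69.7 to 73.0%) and 246 f/f reads (68.9%; 63.8 to 73.7%) lay in the coding sequence, which made up 52.3% of the length of these mRNAs. The 5′ UTR held 365 null reads (12.4%; 11.2 to 13.6%) and 70 f/f reads (19.6%; 15.6 to 24.1%), a difference of -7.23 percentage points (-11.9 to -3.05), and made up 12.6% of the length. The 3′ UTR held 480 null reads (16.3%) and 41 f/f reads (11.5%), a difference of 4.80 percentage points (0.80 to 8.21), and made up 35.1% of the length. Per kb this was 51.1 null and 5.98 f/f reads in the coding sequence, 36.8 null and 7.05 f/f reads in the 5′ UTR, and 17.4 null and 1.49 f/f reads in the 3′ UTR. The coding sequence was thus the densest region in null and the 5′ UTR, with 70 reads, in f/f, while the 3′ UTR was the sparsest in both. Among reads in no gene outside the ribosomal protein genes, the coding sequence held 29.98% in null and 29.79% in f/f. Both shares were below its 52.3% of the length. However, that filter also dropped reads shared with pseudogenes, copies of these mRNAs in the genome. The length was not cut to the part that the remaining reads could match, so these shares cannot decide whether the excess held. In CPM the ratio of null over f/f was 8.24 (6.37 to 10.8) in the 5′ UTR, 13.5 (11.8 to 15.5) in the coding sequence and 18.5 (13.4 to 26.1) in the 3′ UTR. Some representative mRNAs carried long annotated UTRs that the cells may not use, and this was not tested.

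**Figure D5:**
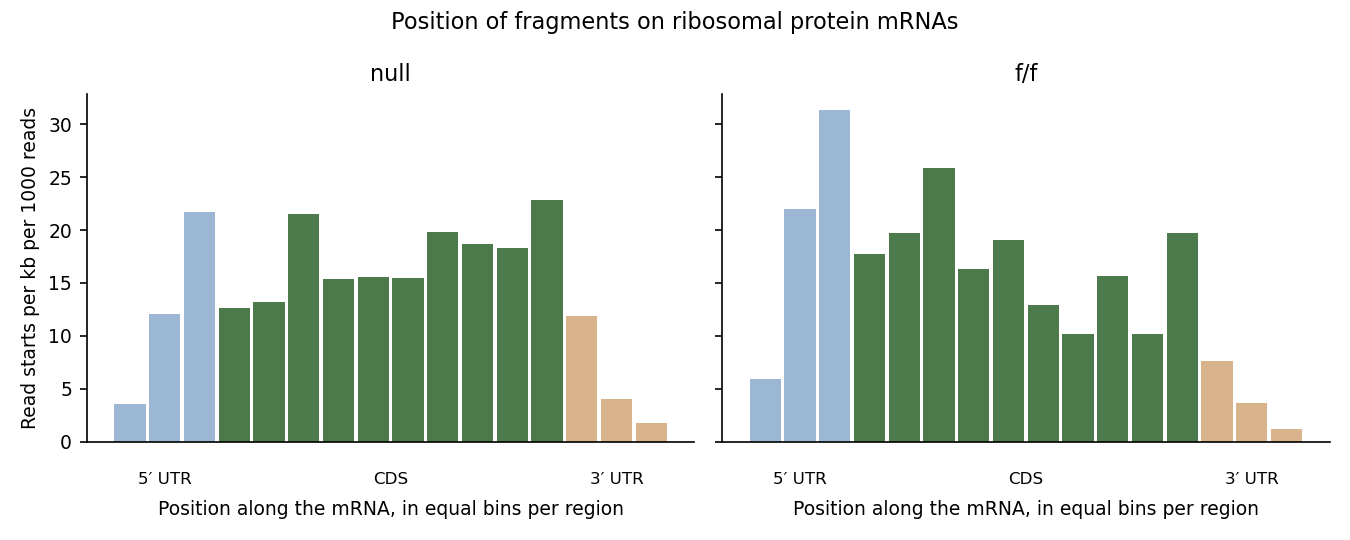
Bars show read starts per kb per 1000 placed reads in 3 bins of the 5′ UTR, 10 bins of the coding sequence and 3 bins of the 3′ UTR over all representative mRNAs, in null (left) and f/f (right), 1 library each. The last coding bin held 22.8 in null and 19.8 in f/f, and the last 5′ UTR bin held 21.7 in null and 31.3 in f/f.

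The fragments were spread along the mRNAs. In null they covered between 2.73% and 60.5% of a representative mRNA, with a median of 25.7% over 78 genes, and in f/f up to 29.3% with a median of 6.35%. Rps2 had the widest cover in null, 60.5% from 58 sequences, and Rpl9 in f/f, 29.3% from 13 sequences. Few reads began at an annotated 5′ end, 9 in null (0.305%; 0.140 to 0.579%) and 3 in f/f (0.840%; 0.174 to 2.44%) within the first 5 nt. Reads that crossed an exon junction were 438 in null (14.9%) and 60 in f/f (16.8%), a difference of -1.95 percentage points (-6.42 to 2.01). Reads over the start codon were 5.60% in null and 7.28% in f/f, and reads over the stop codon 6.14% in null and 4.76% in f/f, and both differences had intervals that included 0.

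Ribosome footprints begin mostly at 1 position of the codon, and the reading frame of these fragments was counted for comparison. Of 24 to 35 nt reads in the coding sequence, the first codon position began 322 of 1034 null reads (31.1%; 28.3 to 34.1%) and 44 of 126 f/f reads (34.9%; 26.7 to 43.9%), a difference of -3.78 percentage points (-13.2 to 4.99). The second position began 34.6% in null and 34.9% in f/f, and the third 34.2% in null and 30.2% in f/f. Among 28 to 32 nt reads the first position began 143 of 367 null reads (39.0%; 34.0 to 44.2%) and 16 of 45 f/f reads (35.6%; 21.9 to 51.2%). Frame was nearly even at 24 to 35 nt. At 28 to 32 nt the first position was the commonest in both libraries, and in null its interval lay above an even share of the 3 positions. The same held in null outside that range, where the first position began 39.2% of 18 to 23 nt reads (35.9 to 42.6%), 43.3% of 36-nt reads (36.6 to 50.2%) and 35.7% of reads of all lengths (33.6 to 37.8%). In f/f the first position began 38.1% of 18 to 23 nt reads (28.8 to 48.1%), 26.7% of 36-nt reads (7.79 to 55.1%) and 35.8% of reads of all lengths (29.8 to 42.1%), with intervals that included the even share. These intervals treat copies of a sequence as independent. With each sequence counted once over both libraries together, the first position began 36.2% at 18 to 23 nt and 39.6% at 28 to 32 nt. It began 35.6% at 36 nt and 34.7% at all lengths. No interval was made for these shares, so an uneven frame in null was not established.

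Read ends differed between the libraries in their bases. A read began with G in 24.1% of null reads (22.6 to 25.7%) and 36.97% of f/f reads (31.95 to 42.2%), where G made up 26.2% of the mRNAs, a difference of -12.9 percentage points (-18.3 to -7.59). It began with T in 28.7% of null reads (27.1 to 30.4%) and 14.6% of f/f reads (11.1 to 18.7%), where T made up 24.02% of the mRNAs, a difference of 14.2 percentage points (9.76 to 18.04). With each sequence counted once per library, G began 24.1% in null and 32.7% in f/f, and T 29.7% in null and 17.6% in f/f. Other coding fragments began with G in 23.7% of null and 36.4% of f/f reads, and with T in 23.5% of null and 17.5% of f/f reads, so G was likewise commoner in f/f there and T in null. Among reads shorter than 36 nt, the last base was T in 34.6% of null reads (32.9 to 36.5%) and 25.8% of f/f reads (21.1 to 30.9%). The dinucleotide across the 3′ end was TA (T last in the read, A next in the mRNA) in 8.09% of null reads (7.08 to 9.18%) and 3.68% of f/f reads (1.92 to 6.34%), beside 3.81% of all dinucleotides of these mRNAs, which in null was 2.12 times their share. GG at the 5′ cut was 2.79% in null and 10.6% in f/f, beside 7.10% of the mRNAs. The GC content was 52.3% in null and 53.4% in f/f, beside 50.1% in the mRNAs.

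Ribosomal protein genes have many processed pseudogenes, copies of their spliced mRNA in the genome. Of the spliced mRNA reads, 1957 null (59.7%; 58.0 to 61.4%) and 239 f/f reads (55.6%; 50.7 to 60.3%) also matched an annotated pseudogene transcript. A match to a gene that was neither a pseudogene nor a ribosomal protein gene occurred for 571 null (17.4%) and 90 f/f reads (20.9%). Reads that matched ribosomal protein genes alone were 1149 in null (35.04%) and 166 in f/f (38.6%), and 0 reads matched more than 1 ribosomal protein gene. The parent mRNA and its copies therefore could not be told apart for most reads.

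The libraries sampled different fragments. Of 1554 spliced mRNA sequences, 12 were seen in both libraries, 0.948% of the null and 4% of the f/f sequences, and for other coding fragments these shares were 1.94% in null and 7.63% in f/f. A sequence had 2.59 reads on average in null and 1.43 in f/f. Sequences seen once in the series held 14.6% of null and 48.8% of f/f reads. At this depth, the 430 f/f reads limit statements on single genes, since the 10 leading genes held 172 of them.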

How the data were processed

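Small RNA of 1 null and 1 f/f clonal line was sequenced. The files the authors deposited hold a raw count for every distinct read sequence and nothing else. The submitters' processing notes name the build mm9, and how reads were trimmed or aligned is not given in those sources. Reads from 18 nt up were placed without mismatch on the sense strand of the GRCm38 transcripts of GENCODE M21. Reads inside or overlapping a small RNA gene on the same strand were left out. A read counted for each gene it matched. CPM used all reads of a library (6291599 null, 9943989 f/f). Spliced mRNA reads matched a transcript typed as protein coding, and reads with 1 base at 80% or more of positions were left out; this split and the overlap with RefSeq small RNA genes were chosen after the data were seen. RefSeq positions are GRCm38.p6 and carry no strand.

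Representative mRNAs were the APPRIS principal transcripts with the longest coding sequence. Shares have Clopper-Pearson intervals, ratios the exact conditional interval of 2 counts, differences a hybrid of 2 exact intervals, all at 95%. The depth sets these intervals, which cover counting error alone. No test was made, because each genotype had 1 library. Named were the 10 genes with most reads per library, the 5 highest and 5 lowest ratios among genes with at least 50 reads, the stalk, 5S particle and paralog lists, the leading sequences and the leading gene of each other list. Members and lists were chosen with earlier results of these data known. Alternatives changed the read length, the copy number, the transcripts, the genes and sequences kept, the scale, the minimum of reads per gene and the representative mRNA. Matching and intervals were tested on simulated data. Scripts ran in Python 3.11.15 with scipy 1.17.1, pandas 2.3.3, numpy 2.4.6 and, for figures, matplotlib 3.10.9.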

Additional observations from a re-analysis of the deposited data

How the results depend on the processing

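The ratio of the members' CPM, 7.63, was 8.52 with reads of at least 20 nt, 9.41 with at least 24 nt, 9.85 with sequences seen at least 2 times, 6.55 with reads in no other gene, 9.60 on protein-coding transcripts, 8.89 with reads partly in a small RNA gene kept, 8.67 without the leading gene (Rpl7a), and 8.38 per read of at least 18 nt. On other scales it was 25.8 per read that matched a transcript and 1.79 per snoRNA and snRNA read, and reversed to 0.924 per other coding read. Counting each sequence once, in the members and in the library total alike, gave 1.47. Settings chosen after seeing the data gave 12.1 on spliced mRNA, 12.6 on spliced mRNA in no other gene but pseudogenes, and 8.59 without RefSeq small RNA genes.

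The difference in the share of coding reads, -0.15 percentage points, was -0.55 from 20 nt, -0.82 from 24 nt and -0.45 without the 5 leading other coding genes of each library. It reversed to 0.18 on protein-coding transcripts, 0.95 with partial small RNA overlaps kept, 0.0784 without Rpl7a (-0.0491 to 0.201), 0.42 on spliced mRNA, 0.39 on spliced mRNA in no other gene but pseudogenes, and 0.0651 without RefSeq small RNA genes (-0.0632 to 0.188). The intervals without Rpl7a and without RefSeq small RNA genes included 0. So did those without 36-nt reads (-0.26 to 0.0202), with sequences seen at least 2 times (-0.30 to 0.0290), with the wider symbol set (-0.28 to 0.00974) and without the leading sequence (-0.27 to 0.00307).

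Genes above 2-fold, 69 of 69 by the rule, numbered 21 of 69 per other coding read (15.6% of all genes), 46 of 69 per snoRNA and snRNA read (37.4%), 36 of 36 with at least 50 reads (95.4%), 11 of 11 with at least 100 reads (98.3%), 43 of 43 with reads of 1 gene (99.1%) and 51 of 51 from 24 nt (98.7%). The difference in the share of 24 to 35 nt reads, 9.51 percentage points by the rule, was 5.55 from 20 nt, 13.2 with reads in no other gene and 5.94 on spliced mRNA. That of 36-nt reads, 1.84, was -0.38 with each sequence counted once and -0.63 with reads in no other gene. Of 68 alternative values with an interval, 39 stayed within the interval of the reported value. These include all differences between the libraries on the coding sequence, the first 5 nt and the reading frame. Their intervals included 0 except for the share in the coding sequence with single-base reads kept, 7.14 percentage points. That setting was also chosen after seeing the data. The share in the coding sequence itself depended on which reads were kept. With reads in no other gene it was 29.98% in null and 29.79% in f/f, against 71.3% and 68.9% as reported. That setting drops reads shared with pseudogenes, and the length of each region was not cut to match. Unless stated, the cause was not tested. No paired analysis was possible because each genotype had 1 library.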

Other observations

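Reads antisense to spliced ribosomal protein mRNAs were rare. They numbered 44 in null and 12 in f/f, over 26 distinct sequences, beside 3279 null and 430 f/f sense reads.

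The RefSeq promoter table (GRCm38.p6) gave the start of 60 of the 80 genes. A tract of a C followed by 4 bases that were each C or T began within 5 bases of that start, on the gene's strand, in 28 of these 60 genes (46.7%) and in 3600 of 16522 protein-coding genes with an entry (21.8%). This describes the annotated starts. Few reads began there, 9 in null and 3 in f/f within the first 5 nt.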
